A study of Mus musculus with 14 samples.

Results

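Reactive astrocyte genes are transcripts that astrocytes, the star-shaped support cells of the brain, switch on or raise after injury, infection or inflammation. The 10 genes examined here were Gfap, Vim, Serpina3n, Cd44, Osmr, Lcn2, Timp1, S1pr3, S100a10 and Ggta1, taken by exact symbol from a table of 13130 genes. The table holds rows for 6 of them, Gfap, Vim, Serpina3n, S1pr3, S100a10 and Ggta1. The other 4, Cd44, Osmr, Lcn2 and Timp1, have no row, and only their promoter sequences were examined.

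The values come from polyadenylated RNA of the mouse nucleus accumbens, the part of the ventral striatum that serves reward and motivation, in C57BL/6 mice. All 14 mice carried Tet1 loxP/loxP alleles, controls included, and Tet1 encodes a dioxygenase that oxidises methylated cytosine in DNA. In 7 mice the region was injected with an adeno-associated virus delivering Cre recombinase (AAV-Cre), and in 7 with one delivering green fluorescent protein (AAV-GFP), and tissue was taken 4 weeks later. The sources used here do not give age, sex, virus serotype or the promoter driving Cre, and cells that the virus did not reach keep Tet1. The only data are the authors' own comparison of the 7 AAV-Cre with the 7 AAV-GFP libraries, so no value per mouse, no group mean, no depth and no SD can be shown. A positive log2 fold change is read as higher in AAV-Cre, from the name of the comparison.

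Reactive astrocytes thicken and extend their processes and rebuild the intermediate filaments made of GFAP and vimentin. Cytokines of the interleukin-6 family, which signal through the shared receptor subunit gp130 and the transcription factor STAT3, are well-known inducers of this state, as are interferons and NF-kB signals from microglia. In the mouse, a widely used scheme separates genes raised after both inflammation and ischaemia (pan-reactive) from genes raised mainly after inflammation (A1-type) or mainly after ischaemia (A2-type). Of the genes examined, Gfap, Vim, Serpina3n, Cd44, Osmr, Lcn2, Timp1 and S1pr3 belong to the pan-reactive set, Ggta1 to the A1-type set and S100a10 to the A2-type set. Several of them are also transcribed in other cells of the brain, Vim for instance in endothelial and ependymal cells. In bulk tissue a change in the number of cells of a type and a change in RNA per cell cannot be told apart.

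Between AAV-Cre and AAV-GFP, 5 of the 6 measured genes had a positive log2 fold change in the authors' deposited table and 1, S100a10, lay near 0, where 59.1% of all genes of the table had a positive value. The order ran from Vim through Serpina3n, Gfap and Ggta1 to S1pr3 and S100a10. At the adjusted threshold of 0.05 of the authors' model, whose columns carry limma's names, 0 of the 6 genes passed, as did 0% of all 13130 genes in the authors' deposited table. An unadjusted p under 0.05 was listed for 3 of the 6, Vim, Ggta1 and Serpina3n, all higher in AAV-Cre, and for none of the 6 in the other direction. The same count over the whole of the authors' deposited table was 4.62% of genes on the higher side and 0.533% on the lower side. The median log2 fold change of the 6 genes was 0.64 in the authors' deposited table, against 0.02 over all genes. A mean weighted by the inverse squared standard error, which leans on S1pr3 and S100a10, was 0.34. The members were chosen with earlier results of these data known, and 4 of the 10 have no row, so these counts and the median are a description and not a test.

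The promoters of the 4 genes with the largest log2 fold changes are printed, a choice made from those values. Each sequence is from RefSeq (GRCm38.p6), reads 5′ to 3′ on the gene's own strand, and spans 250 bases before the annotated transcript start and the first 30 bases after it. Capitals mark matches to the motif letters of NF-kB (GGNNNTTCC) and STAT factors (TTCNNNGAA), searched on both strands.
Gfap, chr11:102897171-102897450, minus strand: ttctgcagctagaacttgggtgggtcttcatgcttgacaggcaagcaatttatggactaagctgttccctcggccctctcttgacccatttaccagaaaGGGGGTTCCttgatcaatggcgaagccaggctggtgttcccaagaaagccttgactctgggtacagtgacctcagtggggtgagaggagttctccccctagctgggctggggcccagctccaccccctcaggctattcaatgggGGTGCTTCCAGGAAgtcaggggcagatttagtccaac
Vim, chr2:13574061-13574340, plus strand: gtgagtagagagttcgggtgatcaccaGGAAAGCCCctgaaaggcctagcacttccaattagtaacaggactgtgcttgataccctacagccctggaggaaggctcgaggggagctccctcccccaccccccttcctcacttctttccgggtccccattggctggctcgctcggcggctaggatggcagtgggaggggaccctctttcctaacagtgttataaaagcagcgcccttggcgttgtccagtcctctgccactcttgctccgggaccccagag
Serpina3n, chr12:104406458-104406737, plus strand: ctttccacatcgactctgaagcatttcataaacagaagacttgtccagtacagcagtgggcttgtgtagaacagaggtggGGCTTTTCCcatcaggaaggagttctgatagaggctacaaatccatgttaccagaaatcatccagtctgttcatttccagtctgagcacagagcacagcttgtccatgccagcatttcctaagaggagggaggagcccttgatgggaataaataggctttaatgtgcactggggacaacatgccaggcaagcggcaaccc
Ggta1, chr2:35461420-35461699, minus strand: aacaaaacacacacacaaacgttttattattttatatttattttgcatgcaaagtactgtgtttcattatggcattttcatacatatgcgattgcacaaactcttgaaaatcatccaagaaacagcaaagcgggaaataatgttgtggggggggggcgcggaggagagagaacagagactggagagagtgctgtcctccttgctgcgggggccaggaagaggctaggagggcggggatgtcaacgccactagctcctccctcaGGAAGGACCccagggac

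The Gfap promoter held a palindromic STAT match, TTCCAGGAA, from position -2 to position 7 around its start, and 2 NF-kB matches, the second of which overlaps the STAT match. Vim and Serpina3n each held 1 NF-kB match before the start, and Ggta1 had its single one just after it. Promoter sequences were found for 9 of the 10 genes, S100a10 being the one without. Over windows of 300 bases, the STAT letters occurred in 1 of these 9 genes and in 8.30% of all 32851 promoters of the reference set. That set is not limited to the genes measured here. The NF-kB letters occurred in 4 of 9, against 18.5% of all promoters. AP-1 letters (TGANTCA) were found in Osmr alone (7.81% of all promoters), and the interferon response letters (GAAANNGAA) in none of the 9 (8.56% of all promoters). A match of letters describes the sequence and is neither evidence of a bound factor nor, where missing, of its absence.

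Vim and Gfap, which encode the filament proteins of reactive astrocytes, lie on chromosome 2 from 13573927 to 13582826 (plus strand) and on chromosome 11 from 102887336 to 102900912 (minus strand) in GRCm38. For Vim the authors' deposited table lists a log2 fold change of 0.91, with a derived standard error of 0.26 and 95% limits of 0.36 to 1.45. That is 1.88 times the AAV-GFP level, with limits of 1.28 to 2.74, at an unadjusted p of 0.00298 in the authors' deposited table. Vim ranked 55th by p among the 13130 genes and shared the smallest adjusted p of the authors' deposited table, 0.695, with 63 other genes, all of them higher in AAV-Cre. Gfap stood at 0.69 ± 0.34 (log2 fold change and its standard error) in the authors' deposited table, or 1.61 times the control level, with limits of 0.972 to 2.67. These limits include no change, and the authors' deposited table gives Gfap an unadjusted p of 0.0625 and an adjusted p of 0.919.

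Serpina3n encodes a secreted inhibitor of serine proteases and lies on chromosome 12 (104406729 to 104414329, plus strand, GRCm38). Its log2 fold change was 0.86 ± 0.40 (standard error) in the authors' deposited table, or 1.82 times control, and the limits of 1.01 to 3.27 reached almost to no change. Its unadjusted p of 0.0474 in the authors' deposited table became 0.0518 when the median of all genes was subtracted from its fold change. Serpina3n is one of a cluster of closely similar Serpina3 genes in the mouse; the authors' deposited table lists none of the other members, and how reads shared between them were counted is not given in the sources used here. Among the 12 serpin genes of the table, a family gathered by symbol after the values were seen, 9 were higher and 3 had an unadjusted p under 0.05, all higher. Besides Serpina3n these were Serping1 (log2 fold change 0.84 ± 0.25, standard error), the inhibitor of the first complement component, and the collagen chaperone gene Serpinh1 (0.25 ± 0.10) in the authors' deposited table. The family's median was 0.06, while Serpini1, the neuronal serpin, stood at -0.36 ± 0.29 (unadjusted p = 0.233) in the authors' deposited table.

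Ggta1 encodes the glycosyltransferase that adds alpha-1,3-linked galactose to cell surface glycans, and lies on chromosome 2 (35400179 to 35463231, minus strand, GRCm38). In the authors' deposited table its log2 fold change was 0.60 ± 0.26 (standard error), 1.51 times control with limits of 1.03 to 2.22 (unadjusted p = 0.0373, adjusted p = 0.919). S1pr3 encodes a G protein-coupled receptor for the lipid sphingosine-1-phosphate and lies on chromosome 13 (51408639 to 51422797, plus strand, GRCm38). Its log2 fold change of 0.28 ± 0.14 in the authors' deposited table is the smallest of the 5 positive ones, 1.21 times control with limits of 0.986 to 1.49 (unadjusted p = 0.0656). A total of 45 exonic bases of S1pr3 overlap an annotated long noncoding RNA on the opposite strand, and the sources used here do not say whether counting used strand.

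S100a10 encodes p11, a small protein that pairs with annexin A2 and brings membrane proteins, among them serotonin receptors, to the cell surface. It lies on chromosome 3 (93555080 to 93564643, plus strand, GRCm38). Its log2 fold change was -0.02 ± 0.15 (standard error) in the authors' deposited table, 0.986 times control, with an unadjusted p of 0.894. The limits of 0.790 to 1.23 hold both a small fall and a small rise, but lie wholly below the lower limit of Vim, 1.28. Every other pair among the 6 genes had overlapping limits, and since all 6 were measured in the same mice, differences between them could not be tested without values per library.

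**Figure D1:**
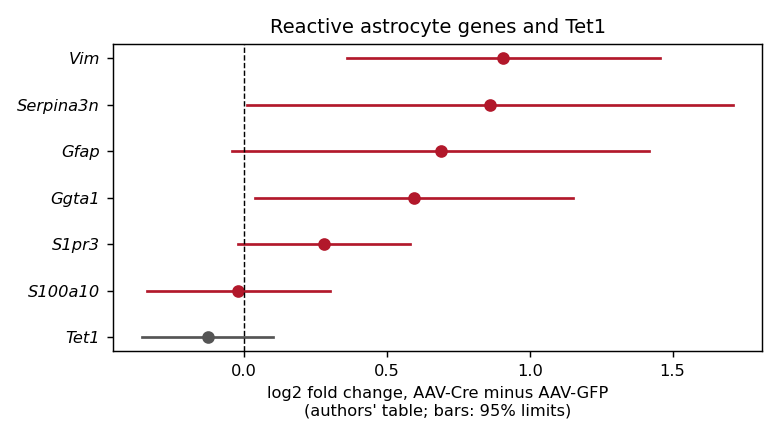
Log2 fold change (x axis, AAV-Cre minus AAV-GFP) of the 6 measured reactive astrocyte genes in red and of Tet1 in grey, as points from the authors' deposited table with bars for the derived 95% limits. Vim lies farthest from 0 at 0.91, the bars of Gfap and S1pr3 cross 0, and S100a10 sits at -0.02.

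Tet1 itself stood at -0.13 ± 0.11 (standard error) on the log2 fold change scale in the authors' deposited table (unadjusted p = 0.255), with limits of 0.781 to 1.07 times control. The deleted exons are not named in the labels, so this value for the whole gene is no measure of how many cells recombined.

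The 6 genes span a wide range of levels. Per kilobase of annotated exon, Gfap was the most abundant of them, at a mean level of 34.8 CPM per kilobase over all libraries, in units that behave like CPM, read counts scaled to a common library total. Serpina3n (12.03 CPM per kilobase) and Vim (11.7) followed, then S100a10 (5.53), and S1pr3 (1.69) and Ggta1 (1.64) were the scarcest. On the same scale, without division by length, mean levels ran from 6.70 CPM for S100a10 to 147 CPM for Gfap, the 15.7th to the 88.9th percentile of the table. Gfap, Vim and Serpina3n, the 3 of the 6 with the highest mean level in CPM, also had the 3 largest log2 fold changes. Ggta1, S1pr3 and S100a10 lay close together in mean level, at 7.71, 7.56 and 6.70 CPM, and stood at 0.60, 0.28 and -0.02 on the log2 fold change scale in the authors' deposited table.

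**Figure D2:**
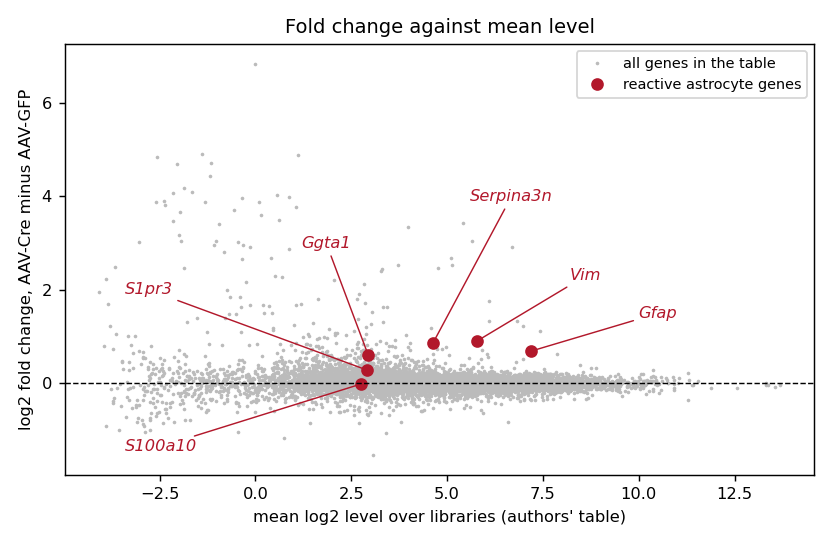
Log2 fold change (y axis, AAV-Cre minus AAV-GFP) against mean log2 level over libraries (x axis) for all 13130 genes of the authors' deposited table in grey, with the 6 reactive astrocyte genes in red. Vim, Serpina3n, Gfap and Ggta1 lie above the band that holds most genes of their level, and S100a10 lies within it.

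Against genes of like abundance, Vim had a larger log2 fold change than all of the 200 genes nearest to it in mean level, and Gfap and Serpina3n were each exceeded by 1 of their 200. For Ggta1, 6 of the 200 nearest genes were higher, for S1pr3 20 and for S100a10 141. These ranks rest on the same fold changes from the authors' deposited table and carry no error of their own.

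The standard errors of the leading genes were also large. Serpina3n had a standard error 5.61 times the median of its 200 nearest genes in level, Gfap 5.18 times, Vim 4.13 times and Ggta1 2.38 times. S100a10 and S1pr3, which differed least between the groups, had 1.39 and 1.28 times that median. None of the 200 genes nearest to Gfap, nor of those nearest to Serpina3n, had a larger standard error, and 1 of those nearest to Vim did. With errors of this size an unadjusted p under 0.05 needed a log2 fold change of at least 0.73 for Gfap and 0.85 for Serpina3n, against 0.30 for S1pr3 and 0.32 for S100a10. The standard error is derived from the authors' moderated t and reflects how far libraries lie apart within both groups. It is not the plain spread of either group, and which mice lie high or low is not recorded in the comparison.

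**Figure D3:**
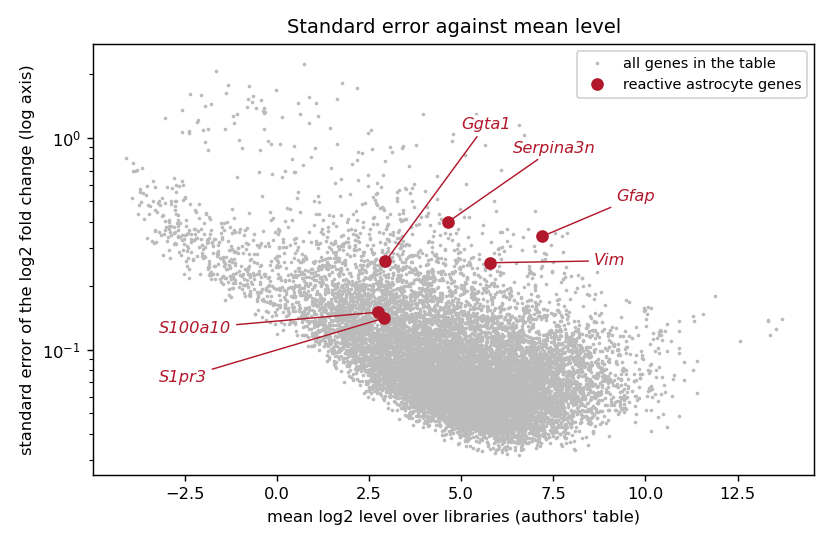
Standard error of the log2 fold change (y axis, log scale), derived from the authors' deposited table, against mean log2 level over libraries (x axis), with all genes in grey and the 6 reactive astrocyte genes in red. Gfap, at a standard error of 0.34, lies far above most genes of its level, while S1pr3 and S100a10 lie at 0.14 and 0.15.

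Other genes of the pan-reactive set had rows as well. Besides the 4 already described, the table held 3 of the remaining 5 genes of a pan-reactive list. The chemokine gene Cxcl10, also an interferon target, stood at 2.69 ± 0.79 (log2 fold change and its standard error) in the authors' deposited table (unadjusted p = 0.00402). Cp, which encodes the iron-oxidising protein ceruloplasmin, stood at 0.20 ± 0.14 and the small heat shock protein gene Hspb1 at 0.20 ± 0.16, neither with an unadjusted p under 0.05 in the authors' deposited table.

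Most A1-type genes lay on the higher side. Of 12 A1-type genes 11 had rows, 10 were higher and 9 had an unadjusted p under 0.05, all higher, and the list's median log2 value was 0.92. The complement gene C3 (3.09 ± 0.85, standard error), the interferon-inducible GTPase genes Iigp1 (1.79 ± 0.42) and Gbp2 (1.53 ± 0.39) and the MHC class I gene H2-D1 (1.34 ± 0.37) led this list in the authors' deposited table. Ggta1 ranked 9th of the 11 by p and came after Srgn (0.43 ± 0.14), which encodes the granule proteoglycan serglycin, in the authors' deposited table. Many A1-type genes respond directly to interferon, and Iigp1, Gbp2 and Psmb8 are in the interferon list as well. Of the 12 A2-type genes only 4 had rows. Emp1, a membrane protein gene, stood at 0.79 ± 0.33 (unadjusted p = 0.0277), Cd14 at 0.25 ± 0.23 and Tm4sf1 at 0.18 ± 0.12 in the authors' deposited table, and S100a10 was the lowest of the 4. With 8 of the A2-type genes without a row, the lists were not compared by a test.

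The receptor and kinase chain that drives Gfap in cytokine-stimulated astrocytes showed small values. Of the 20 genes of gp130 and STAT3 signalling 12 had rows, 6 higher and 6 lower, with a median log2 fold change of 0.00 when rounded. Stat3 was the 1 gene of this list with an unadjusted p under 0.05 in the authors' deposited table, at 0.20 ± 0.07 (unadjusted p = 0.0107). Over all genes the share with such a p was 4.62% on the higher side, and activity of the pathway was not measured. The interleukin-6 receptor gene Il6ra stood at 0.19 ± 0.15, the kinase gene Jak2 at 0.11 ± 0.08 and the gp130 gene Il6st at 0.09 ± 0.07 in the authors' deposited table. The leukemia inhibitory factor receptor gene Lifr (-0.01 ± 0.08) and the kinase gene Jak1 (-0.02 ± 0.05) lay at 0 within their errors there. The cytokine genes Osm, Lif, Il6, Cntf, Clcf1 and Il11 and the feedback inhibitor gene Socs3 have no row in the authors' deposited table, as Osmr has none.

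Other intermediate filament genes had values near or below 0. Of 15 filament, lamin and linker genes 10 had rows, 3 higher and 7 lower, with 0 at an unadjusted p under 0.05 and a median log2 fold change of -0.05. Nes, which encodes nestin, a filament protein of progenitors and of some reactive astrocytes, stood at 0.18 ± 0.14 (standard error) in the authors' deposited table. Its partner gene Synm, for synemin, stood at -0.06 ± 0.07 there. The neuronal filament genes Nefl (-0.35 ± 0.20), Nefm (-0.44 ± 0.35) and Ina (-0.17 ± 0.15) had negative values with limits that include 0 in the authors' deposited table.

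The partner gene Anxa2 and the other annexin and S100 genes had larger values than S100a10, with overlapping 95% limits. Anxa2, whose product annexin A2 binds p11, stood at 0.46, with a standard error of 0.19, in the authors' deposited table (unadjusted p = 0.0267). The calcium-binding S100 genes S100a4 (0.71 ± 0.26, unadjusted p = 0.0162) and S100a6 (0.57 ± 0.23, unadjusted p = 0.0283) also lay on the higher side in the authors' deposited table. S100a11, whose gene ends 28.8 kb from the start of S100a10 on the same strand, stood at 0.43 ± 0.20 (unadjusted p = 0.0510) in the authors' deposited table. The 11 of 12 annexin and S100 genes with rows were all higher (median log2 value 0.17), and 3 had an unadjusted p under 0.05. The astrocyte gene S100b was among the lowest of them, at 0.04 ± 0.12 in the authors' deposited table.

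**Figure D4:**
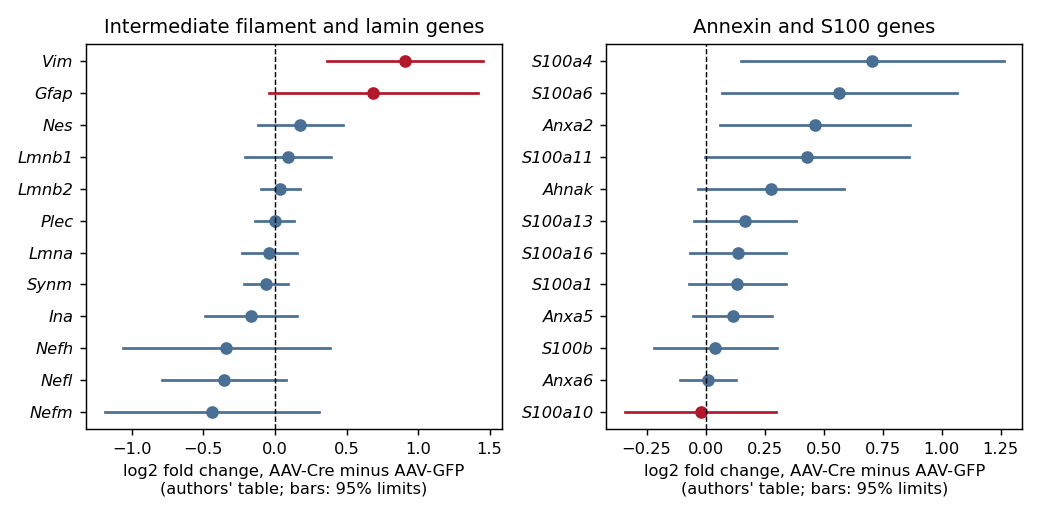
Log2 fold change (x axes, AAV-Cre minus AAV-GFP) of intermediate filament and lamin genes (left) and of annexin and S100 genes (right), as points from the authors' deposited table with bars for the derived 95% limits and the reactive astrocyte genes in red. Vim (0.91) and Gfap (0.69) head the left panel, and S100a10 (-0.02) is the lowest gene of the right panel.

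Genes that work with S1pr3, Timp1 and Cd44 mostly had small values. In the sphingosine-1-phosphate pathway 8 of 11 genes had rows, 7 were higher and the median log2 fold change was 0.10. The kinase gene Sphk2 (0.12 ± 0.05, standard error, unadjusted p = 0.0421) was the 1 gene of this list with an unadjusted p under 0.05 in the authors' deposited table. The sister receptor genes S1pr1 (0.13 ± 0.08) and S1pr2 (0.16 ± 0.12) and the lyase gene Sgpl1 (0.13 ± 0.07) stood below S1pr3 there, with overlapping limits. Among 20 metalloproteases, their inhibitors and regulators, 14 had rows, 7 higher and 7 lower, with a median of -0.01. The membrane-type metalloprotease gene Mmp16 (-0.20 ± 0.09, unadjusted p = 0.0471) was their 1 gene with an unadjusted p under 0.05, on the lower side, in the authors' deposited table. Mmp2 (0.17 ± 0.10), Adam17 (0.11 ± 0.07) and Adamts1 (-0.27 ± 0.17) had limits that include 0 in the authors' deposited table. Of 18 genes of hyaluronan, the ligand of CD44, 14 had rows, 6 higher and 8 lower, with a median of -0.01. Msn, which encodes the membrane linker moesin, stood at 0.39 ± 0.14 (unadjusted p = 0.0130), and Spp1, whose product osteopontin also binds CD44, at 0.64 ± 0.42 (unadjusted p = 0.144) in the authors' deposited table.

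General astrocyte markers, which mark the cells whether reactive or not, were nearly level between the groups. All 18 had rows, 10 higher and 8 lower, with a median log2 fold change of 0.00 when rounded, and 1 had an unadjusted p under 0.05. That gene was the glutamate transporter gene Slc1a3 (0.20 ± 0.08, standard error, unadjusted p = 0.0271), followed by Mlc1 (0.17 ± 0.08), Sox9 (0.19 ± 0.12) and Aldh1l1 (0.10 ± 0.07) in the authors' deposited table. Among the other markers, Slc1a2 (-0.03 ± 0.09), Aldoc (-0.02 ± 0.06), Glul (-0.06 ± 0.07) and the water channel gene Aqp4 (0.07 ± 0.08) had limits on both sides of 0 in the authors' deposited table. Over the 18 markers the median standard error was 0.083, against 0.259 over the 6 reactive astrocyte genes.

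Genes of the interferon response and of some other cells also had positive values, and their part in the values above was not tested. The 24 of 30 interferon response genes with rows were all higher, 22 of them at an unadjusted p under 0.05; their median log2 fold change was 1.02 and their median standard error 0.321. Ifi47 (1.70 ± 0.36, standard error), Gbp5 (0.94 ± 0.22), Cxcl9 (3.89 ± 0.94) and Gbp7 (0.77 ± 0.19) had the smallest p of those not yet named in the authors' deposited table. Microglia markers were higher in 12 of 14 genes, with a median of 0.29, a range of -0.08 to 0.72 and 6 genes at an unadjusted p under 0.05, all higher. C1qa (0.72 ± 0.25), Aif1 (0.50 ± 0.18), C1qc (0.53 ± 0.20) and C1qb (0.56 ± 0.22) led them, while the homeostatic receptor gene P2ry12 stood at 0.02 ± 0.12 in the authors' deposited table. Endothelial markers were higher in 10 of 10 genes, within 0.11 to 0.30, and 3 had an unadjusted p under 0.05. The 4 of 9 ependymal and choroid plexus markers with rows stood between 0.14 and 0.83, with the cilia regulator gene Foxj1 at 0.53 ± 0.25 and Rarres2 at 0.64 ± 0.27 in the authors' deposited table. Mural and fibroblast markers (7 of 10 with rows, 0.06 to 0.20), oligodendrocyte markers (8 of 8, 0.02 to 0.11) and neuron markers (9 of 9, -0.23 to 0.14) held 0 genes at an unadjusted p under 0.05. Of 13 leukocyte markers 2 had rows. The T cell receptor gene Trac stood at 1.39 ± 0.40 (unadjusted p = 0.00322) and Cd4 at -0.05 ± 0.17 (unadjusted p = 0.757) in the authors' deposited table. Mean levels were 0.349 CPM for Trac, where 3.30% of all genes lay below 1 CPM, and 56.7 CPM for Cd4. These 2 genes alone do not measure leukocyte content. The striatal genes Ppp1r1b, Drd1a and Drd2, which mark the projection neurons of the region, were present at mean levels of 1031, 243 and 135 CPM.

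**Figure D5:**
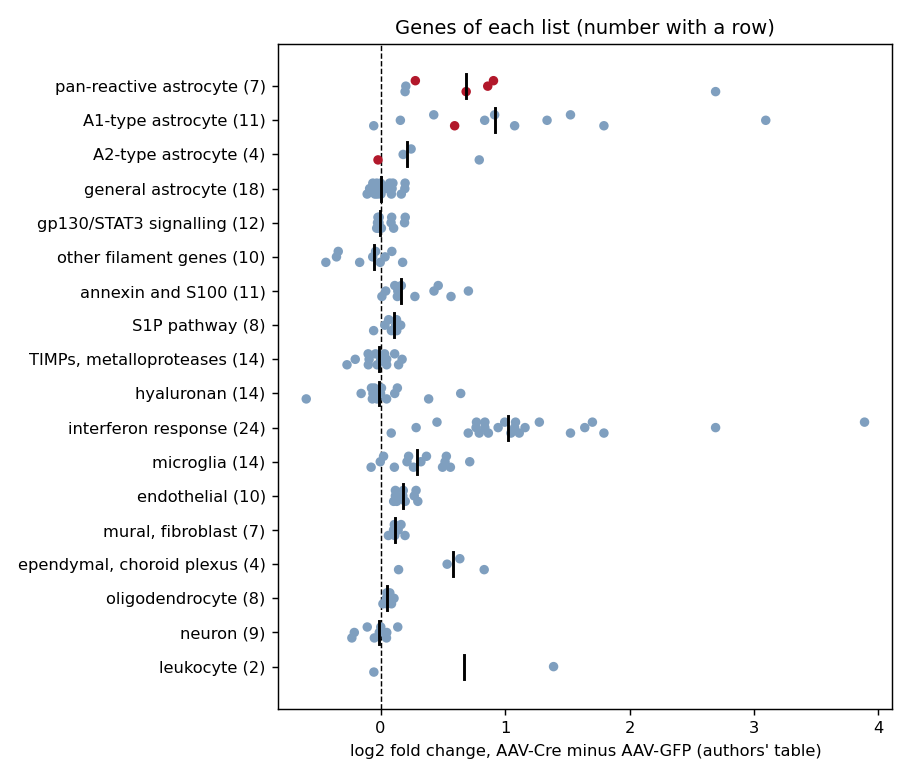
Log2 fold change (x axis, AAV-Cre minus AAV-GFP) of every gene with a row in the authors' deposited table for 18 lists (y axis, number of genes in brackets), with reactive astrocyte genes in red, other genes in blue and a black bar at each list's median; vertical offsets within a list carry no meaning. The medians of the pan-reactive (0.69), A1-type (0.92) and interferon (1.02) lists lie to the right, while general astrocyte markers cluster at 0. Those of the ependymal and choroid plexus (0.59, 4 genes) and leukocyte (0.67, 2 genes) lists lie to the right as well. Without the reactive astrocyte genes the pan-reactive median, over 3 genes, is 0.20.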

How the data were processed

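Libraries were made from 0.5 µg of RNA with a RIN above 8.0 using an Illumina TruSeq mRNA kit, 1 per mouse, per the labels' protocols. TopHat2 2.0.9 and Bowtie2 2.1.0 with GRCm38/mm10 are named in the submitters' processing notes; the sources used here do not state the counting, annotation, filter or model. The table's log2 columns are the authors' fold change and mean level. Its score columns are the authors' moderated t and log-odds (unused), and its p-value columns are unadjusted and adjusted, all per the file headers, which use limma's column names. Depth per library is unknown.

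The fold change divided by t gave the standard error, and 15.1 degrees of freedom, which link t and p in every row, gave 95% limits. Adjusted p-values matched a Benjamini-Hochberg adjustment over all 13130 genes. Linear mean levels sum to 991364, so they are read as CPM. The derivation of the standard error and degrees of freedom and the Benjamini-Hochberg adjustment were tested on simulated data. The 95% limits and the reading of levels as CPM were not. Locations and exonic lengths came from GENCODE M21 (GRCm38), which matched 13063 gene IDs.

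The 10 genes and the 18 gene lists were chosen with earlier results of these data known. Lists are described by counts and medians, with 2 alias pairs merged. Their counts are to be read beside the shares of all genes in the authors' comparison. Those shares were 59.1% with a positive value and, at an unadjusted p under 0.05, 4.62% higher and 0.533% lower. Named genes are the members, Tet1 and up to 4 genes of smallest p per list not named before; further genes, the serpin family included, were named after their values were seen. Alternatives were an adjusted threshold of 0.1, minimum mean levels of 1 and 5 CPM, an unadjusted threshold of 0.01, centring, a weighted mean, leaving out each gene, and looser STAT letters. Values were computed with scipy 1.17.1, numpy 2.4.6 and pandas 2.3.3 in Python 3.11.15 and drawn with matplotlib 3.10.9.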

Additional observations from a re-analysis of the deposited data

How the results depend on the processing

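With an adjusted threshold of 0.1, and with p-values adjusted again over the 12697 genes of at least 1 CPM or the 11547 of at least 5 CPM, 0 of the 6 reactive astrocyte genes passed, and the smallest adjusted p among them was 0.793 and 0.943 under the last 2. Over all genes of those last 2 subsets the smallest adjusted p was 0.782 and 0.943, and 0 genes passed 0.05. At an unadjusted threshold of 0.01, 1 gene, Vim, remained of the 3. The share of all genes at that unadjusted threshold was not counted, so whether 1 of 6 is unusual cannot be read from it. The median log2 fold change of 0.64 became 0.62 under either centring and 0.34 as a mean weighted by the inverse squared standard error, which gives S1pr3 and S100a10 more weight by construction. Leaving out each gene in turn, chosen after seeing the data, gave medians from 0.60 to 0.69. Serpina3n lost its unadjusted p under 0.05 when centred on all genes (0.0518) or on the 200 genes nearest in level (0.0536), while the other 5 genes kept direction and side of 0.05 under both. With the looser letters TTNNNNNAA, which 59.0% of all promoters hold, 5 of 9 genes had a STAT match in place of 1.

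No paired analysis was possible because the deposited comparison holds no value per mouse, so leaving out a mouse was not run either. Unknown depth, the 4 of 10 genes without a row, and the direction of the comparison, taken from its name, limit every value.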
